A study of Homo sapiens with 8 samples.

Results

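The comparison described here set 2 arrays of SW620 cells transfected with an siRNA against HAS3 beside 2 arrays of untreated SW620 cells, which are 4 of the 8 arrays of the series and were chosen by their titles. It covers 10856 named genes, those whose signal had a detection p-value below 0.05 on 2 or more of all 8 arrays. SW620 is a long-established line of human colorectal cancer cells, and every group was kept for 24 h before total RNA was hybridised to single-colour Illumina bead arrays. The untreated cells received neither a transfection nor an agent. A further pair of arrays came from cells transfected with a scrambled control sequence. The last pair, from cells given 4 uM Y15, entered the normalization, the detection filter and the estimate of spread but no comparison tested. The study itself paired the HAS3 siRNA with the scrambled sequence. Against untreated cells, the effects of being transfected, of carrying a small RNA and of the HAS3 sequence cannot be told apart, so each change is given with what the scrambled arrays did. The siRNA and scrambled sequences and the transfection reagent were not among the sources used here. Whether the arrays of a group were separate cultures is not stated, and the p-values reflect array-to-array spread that could be technical only.

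HAS3 encodes a hyaluronan synthase, a membrane enzyme that extends hyaluronan from sugar nucleotides and extrudes it into the pericellular matrix. Hyaluronan is bound by the receptor CD44, made also by HAS2, and degraded by hyaluronidases and by the hyaluronan-binding protein CEMIP. A transfected siRNA is loaded into Argonaute, which then cuts transcripts of matching sequence.

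Mean intensity was between 352.1 and 524.7 on the untreated, HAS3 siRNA and scrambled arrays, and between 12578 and 13916 probes of 24526 were detected on each. Across genes, which are not independent replicates, the arrays within each of these 3 groups correlated at r = 0.993 to 0.9956, and untreated arrays with HAS3 siRNA arrays at 0.9718 to 0.9748. Of 13 colon epithelial markers on the array 8 were detected on all 6 of these arrays (EPCAM, CDH1, KRT8, KRT18, KRT19, CDX2, VIL1 and CLDN7), and KRT20, CDX1 and LGALS4 were detected on none. Of the 10 tested, 3 rose (KRT18, CDH17 and VIL1) and 3 fell with HAS3 siRNA (CDH1, CLDN7 and CDX2), with a median log2 fold change of 0.017. The rises numbered 1 without the first untreated array or either HAS3 siRNA array, and 0 without the second untreated array or under median centring, while the falls stayed at 3. The summed log2 level of the 13 was 100.6 to 101.7 on untreated, 96.1 to 96.7 on HAS3 siRNA and 99.4 to 100.8 on scrambled arrays. Of 11 fibroblast, 9 endothelial and 10 leukocyte markers, 1 each was detected on all 6 arrays (PDGFRA, PECAM1 and CD68), and the defining COL1A2, CDH5 and PTPRC were undetected on all 6. In such bulk samples fewer cells of a kind and less RNA per cell cannot be told apart.

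The transcript that the siRNA was directed against was not lower than in untreated cells. HAS3 had normalized log2 intensities of 9.32 and 9.50 on the untreated arrays, 10.05 and 9.73 on the HAS3 siRNA arrays, and 10.49 and 10.16 on the scrambled arrays. Both siRNA arrays lay above both untreated arrays and below both scrambled arrays. The difference between HAS3 siRNA and untreated was 0.48 on the log2 scale, with an SE of 0.17 and n = 2 arrays a group, and did not pass (limma adjusted p = 0.0534). It passed under 10 of the 19 alternative settings run, which the closing section gives. These settings are not all separate fits: the series matrix values repeat no background correction. Leaving out the second Y15 array repeats the fit of 6 arrays, and leaving out either scrambled array gave the same result here. A second, dimmer HAS3 probe read 5.66 ± 0.04 in untreated and 6.64 ± 0.20 in HAS3 siRNA cells (mean ± SD, n = 2), a difference of 0.98 (adjusted p = 0.00116; values of other probes are adjusted over all kept probes), and 6.95 in scrambled cells. Scrambled minus untreated was 0.91 for the main probe (adjusted p = 0.00329), and HAS3 siRNA minus scrambled was -0.43 (adjusted p = 0.151). Where the probes lie relative to the siRNA target was not tested. The level of HAS3 thus does not bear out the labels of the transfected arrays against untreated cells, and HAS3 siRNA and scrambled stand throughout for the arrays labelled so.

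The other hyaluronan genes moved in both directions. Of 16 tested, 3 rose and 3 fell. The share called over all genes in this comparison was 26.2%, with 12.2% higher and 14% lower. CD44 stood at 6.09 and 6.33 in untreated, 7.18 and 7.41 in HAS3 siRNA and 7.58 and 7.53 in scrambled cells. The receptor transcript was thus higher on all 4 transfected arrays than on either untreated array, 2.12-fold with HAS3 siRNA (log2 fold change 1.08 ± 0.15, SE, adjusted p = 0.000459), and a second, dimmer CD44 probe read 0.50 higher without passing (adjusted p = 0.158). On the Y15 arrays, which were not transfected, CD44 read 7.27 and 7.53, so a higher level was not particular to the transfected arrays. HAS2 read 7.34 and 7.15 in untreated, 7.83 and 7.87 in HAS3 siRNA and 7.17 and 7.25 in scrambled cells. Among these 3 groups it was higher on the siRNA arrays alone, 1.51-fold (adjusted p = 0.0067). The Y15 arrays, which were not transfected, also read 7.80 and 7.83. The HAS2 rise did not pass under median centring (adjusted p = 0.203), and without either scrambled array its difference from scrambled cells did not pass. CEMIP, which takes part in hyaluronan breakdown, fell from 11.30 and 11.45 to 10.21 and 10.17 with the siRNA, while scrambled cells stood at 11.10 and 11.25. This 2.27-fold fall (adjusted p = 0.000114) was likewise missing from the scrambled arrays, though under median centring HAS3 siRNA minus scrambled did not pass. GFPT1, the entry enzyme of hexosamine synthesis, was 1.83-fold lower with HAS3 siRNA (adjusted p = 0.000798) and 1.76-fold lower with the scrambled sequence. HMMR, a hyaluronan-binding mitotic protein, had a log2 fold change of 0.14 (adjusted p = 0.56), and PTK2, the gene of focal adhesion kinase, one of -0.083 (adjusted p = 0.728).

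**Figure D1:**
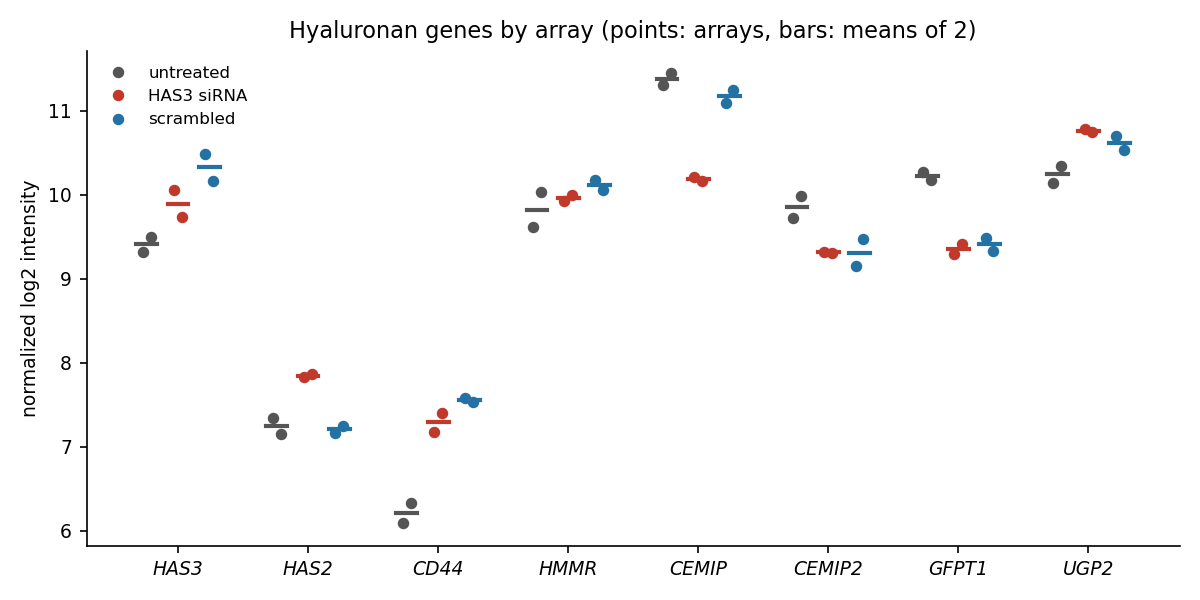
Normalized log2 intensity (vertical axis) of 8 hyaluronan genes on the 2 untreated, 2 HAS3 siRNA and 2 scrambled arrays; points are arrays and bars are means of 2. HAS3 and CD44 are higher on the 4 transfected arrays than on the untreated ones, GFPT1 and CEMIP2 lower, and HAS2 and CEMIP stand apart on the HAS3 siRNA arrays.

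Over all genes, 2843 of 10856 differed between HAS3 siRNA and untreated cells (26.2%), 1323 higher and 1520 lower, at a Benjamini-Hochberg adjusted p under 0.05. Of these, 146 were at least 2-fold higher (1.34%) and 331 at least 2-fold lower (3.05%). The scrambled arrays differed from the same untreated arrays in 2118 genes (19.5%), 960 higher (8.84%) and 1158 lower (10.7%), so both comparisons share their controls. HAS3 siRNA and scrambled cells differed in 892 genes (8.22%), 377 higher (3.47%) and 515 lower (4.74%) with HAS3 siRNA. A change was called shared where scrambled minus untreated passed in the same direction, which held for 1347 genes (12.4% of those tested, 47.4% of those changed), 596 higher (5.49%) and 751 lower (6.92%). A change was called lacking where scrambled minus untreated did not pass and HAS3 siRNA minus scrambled passed in the same direction, which held for 424 genes (3.91% of those tested, 14.9% of those changed), 153 higher (1.41%) and 271 lower (2.5%). Scrambled cells passed in the opposite direction in 42 genes (0.387%), 21 each way (0.193%). The remaining 1030 genes (9.49%) passed against untreated cells alone and are undecided, 553 higher (5.09%) and 477 lower (4.39%). Among changes of at least 2-fold the shared ones were more numerous, with 335 shared, 115 lacking, 13 opposite and 14 undecided of 477. Of the shared changes 87 went further with HAS3 siRNA than with the scrambled sequence by their own test, and 27 less far.

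These counts depended on single arrays and on the scaling. Without the first HAS3 siRNA array 624 genes rose and 801 fell, with 784 shared and 153 lacking. Without the second, 628 rose and 942 fell, with 804 shared and 207 lacking. Without the first untreated array 751 rose and 625 changes were shared. Without the first scrambled array 502 changes were shared and 279 lacking, and without the second 779 and 192. Opposite changes numbered 15 without the first untreated array, 20 without the second, 26 and 24 without either HAS3 siRNA array, and 20 without either scrambled array. Median centring in place of quantile normalization left 343 higher and 834 lower, so that 29.1% of the called genes were higher instead of 46.5%.

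**Figure D2:**
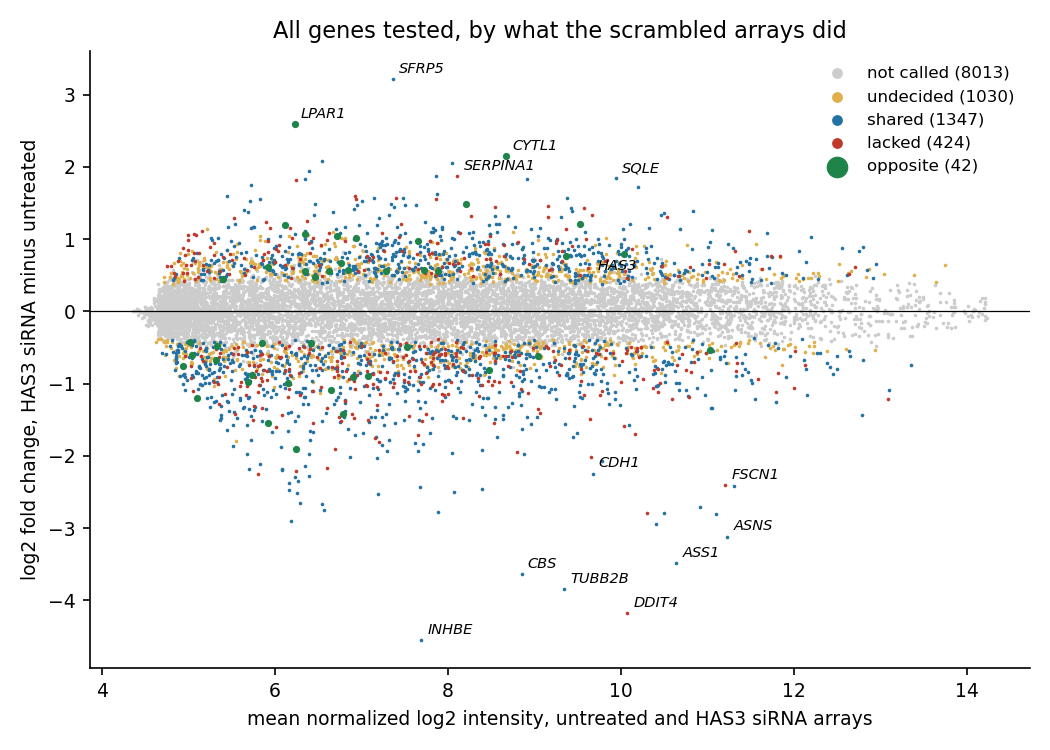
Log2 fold change of HAS3 siRNA minus untreated (vertical axis) against mean normalized log2 intensity (horizontal axis) for all 10856 genes, coloured by what the scrambled arrays did; points of the 42 opposite genes are drawn larger. The largest rise is SFRP5 at 3.22 and the largest fall INHBE at -4.55.

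The group with the most members lower was that of the targets of ATF4, the transcription factor of the integrated stress response, which induces amino acid synthesis, amino acid transport and stress regulators when translation initiation is restrained. Of 45 measured targets 36 fell with HAS3 siRNA and 0 rose, with a median log2 fold change of -1.18 against 0.01 over all genes. In scrambled cells 26 fell and 0 rose, with a median of -0.68. At an unadjusted p under 0.05 in limma, likewise, 0 of the targets were higher in either comparison. Relative to untreated cells the median of the list was -1.20 and -1.19 on the HAS3 siRNA arrays and -0.99 and -0.45 on the scrambled arrays. The siRNA arrays were thus alike, and the scrambled arrays were not.

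INHBE, an inhibin subunit, read 9.86 and 10.07 in untreated, 5.20 and 5.63 in HAS3 siRNA and 7.03 and 8.86 in scrambled cells. It had the largest fall of all named genes, 23.3-fold (log2 fold change -4.55 ± 0.42, SE, limma adjusted p = 2.83e-05), and scrambled cells lay between, 4.05-fold below untreated cells. ASNS, asparagine synthetase, read 12.72 and 12.85, then 9.68 and 9.66, then 9.79 and 10.92 in the same order. Its 8.68-fold fall (adjusted p = 1.75e-05) was shared, with 1 scrambled array close to the siRNA level and the other above it. CBS, which condenses serine with homocysteine, fell 12.4-fold, from 10.74 and 10.60 to 7.04 and 7.02, with 8.14 and 8.58 in scrambled cells. PHGDH, the first enzyme of serine synthesis, fell 6.98-fold (adjusted p = 2.65e-06), and the pseudokinase TRIB3 fell 7.68-fold (adjusted p = 2.93e-05). Both falls were shared. CEBPB, a transcription factor of stress and inflammation, fell 6.53-fold and also further than in scrambled cells (HAS3 siRNA minus scrambled -1.64, adjusted p = 0.00339).

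Several stress regulators fell with the HAS3 siRNA where scrambled minus untreated did not pass. DDIT4, an inhibitor of mTORC1, read 12.22 and 12.09 in untreated, 8.02 and 7.94 in HAS3 siRNA and 10.88 and 12.42 in scrambled cells. The siRNA arrays lay far below all others in an 18.1-fold fall (log2 fold change -4.18 ± 0.34, SE, adjusted p = 1.27e-05). GDF15, a stress-induced secreted factor, fell 6.93-fold, from 11.91 and 11.47 to 8.80 and 8.99, against 10.45 and 11.57 in scrambled cells. CHAC1, which degrades glutathione, read 7.88 and 7.49, then 5.66 and 5.38, then 7.42 and 8.32. ATF3, itself a stress transcription factor, read 7.56 and 7.72, then 5.70 and 5.77, then 7.66 and 8.73. In both, 1 scrambled array lay above both untreated arrays, and the falls with HAS3 siRNA were 4.49-fold and 3.74-fold (adjusted p = 0.000117 and 0.000414). VLDLR, a lipoprotein receptor, fell 4.61-fold. In the whole list 24 falls were shared, 10 lacking and 2 undecided. This split rested on the scrambled arrays: without the first, 9 were shared and 15 lacking, and without the second 31 were shared and 2 lacking, DDIT4, GDF15 and VLDLR then being shared. CEBPB was lacking without the first. The count of falls with HAS3 siRNA ranged from 30 to 36 over the arrays left out in turn.

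The ATF4 transcript itself read 13.57 and 13.80 in untreated, 12.44 and 12.52 in HAS3 siRNA and 13.27 and 13.49 in scrambled cells. It fell 2.31-fold (adjusted p = 0.000142), a change lacking in scrambled cells by this probe. Other ATF4 probes read -1.46 and -0.73 with HAS3 siRNA, and for the latter scrambled minus untreated was -1.15.

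The promoters of these genes were read for the composite element of C/EBP and ATF proteins, TGATGNAA on either strand, in the 250 bases before the start of each gene, because this is the site through which ATF4 is known to act. Sequences are from RefSeq with the build GRCh38.p14. Some genes have more than 1 start, so 13042 windows were read for 8959 genes. A gene counted where any of its windows held the letters, and 1.787% of all windows held this element. Of 38 list members with a promoter sequence, 9 held the letters (23.68%), against 218 of 8959 tested genes (2.433%). Because the list was drawn up from known ATF4 targets, a share above that of all genes could be foreseen and does not bear on these arrays. The 5 members with the largest falls that held it are shown, written 5′ to 3′ in the direction of the gene, with the match in capitals. The windows are chr7:97872443-97872502 (minus strand) for ASNS, chr15:40953236-40953295 (plus strand) for CHAC1, chr1:212565190-212565249 (plus strand) for ATF3, chr19:33374045-33374104 (plus strand) for CEBPG and chr7:30594819-30594877 (plus strand) for GARS1. In CHAC1 and GARS1 the match is on the other strand and reads as its reverse complement. The log2 fold changes of these 5 genes with HAS3 siRNA were -3.12, -2.17, -1.90, -1.18 and -1.16. Of the other members that held it, AARS1 fell (-0.67), and JDP2 (-0.22), FGF21 (-0.18) and SLC1A5 (-0.12) did not pass. A match is a description of these letters and not evidence of binding.
ASNS: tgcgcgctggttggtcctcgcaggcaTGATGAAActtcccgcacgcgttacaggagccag
CHAC1: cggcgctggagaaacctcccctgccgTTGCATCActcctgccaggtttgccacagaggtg
ATF3: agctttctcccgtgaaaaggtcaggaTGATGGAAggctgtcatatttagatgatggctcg
CEBPG: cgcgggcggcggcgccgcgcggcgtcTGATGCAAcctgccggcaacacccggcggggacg
GARS1: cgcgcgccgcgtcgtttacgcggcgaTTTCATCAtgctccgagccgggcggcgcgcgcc

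Aminoacyl-tRNA synthetases, which charge tRNAs with amino acids and of which several are known ATF4 targets, fell in both transfected groups. Of 19 measured, 10 fell and 0 rose with HAS3 siRNA (median -0.62), and 10 fell and 0 rose with the scrambled sequence (median -0.52). All 10 falls were shared, and at an unadjusted p under 0.05 in limma 1 synthetase was higher with HAS3 siRNA and 0 with the scrambled sequence. SARS1 read 10.34 and 10.29 in untreated, 8.65 and 8.50 in HAS3 siRNA and 8.75 and 8.97 in scrambled cells, a 3.34-fold fall (adjusted p = 3.16e-05). CARS1 fell 2.52-fold and GARS1 2.23-fold, while WARS1 was 2.11-fold lower with HAS3 siRNA and 2.41-fold lower with the scrambled sequence. Of 24 unfolded protein response genes 10 fell and 1 rose, against 14% lower and 12.2% higher over all genes, and 8 of the changes were shared. XBP1, a transcription factor of that response, fell 2.39-fold, and the chaperone cofactor DNAJB9 fell 1.98-fold, while the chaperone CALR rose 2.01-fold. Without the second HAS3 siRNA array 6 of these genes fell. The scrambled changes of CALR, XBP1 and GARS1 did not pass under median centring or without the first scrambled array, nor that of CALR without the second.

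**Figure D3:**
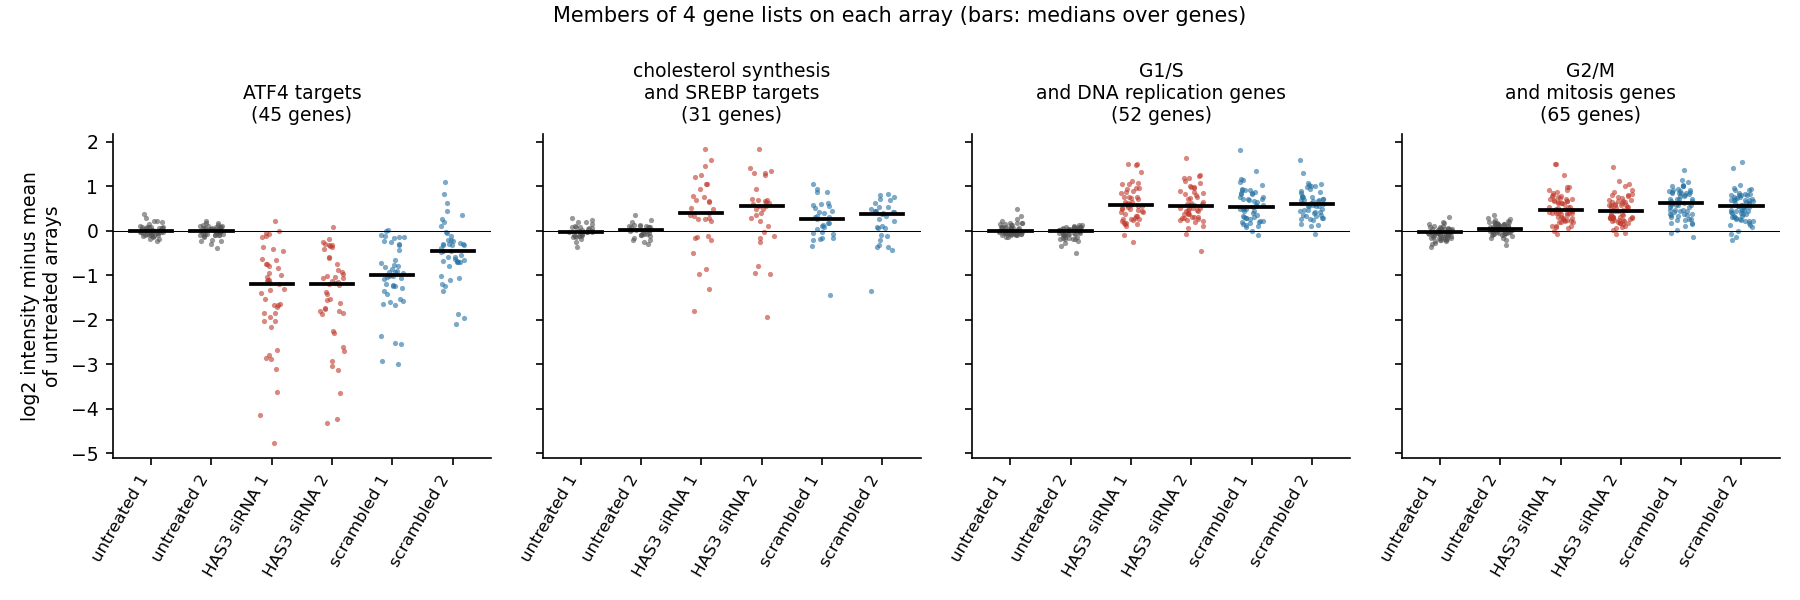
Log2 intensity minus the mean of the untreated arrays (vertical axis) for every measured member of 4 gene lists on each of 6 arrays; points are genes and black bars are medians over genes. ATF4 targets sit lower on both HAS3 siRNA arrays (medians -1.20 and -1.19) than on the scrambled arrays (-0.99 and -0.45), cholesterol genes are higher on the transfected arrays, and the cell cycle lists have medians between 0.45 and 0.62 on all 4 transfected arrays.

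Cell cycle genes were higher in cells given HAS3 siRNA, and by like amounts in scrambled cells. Of 52 genes of the G1/S transition and DNA replication 33 rose and 0 fell in each of the comparisons with untreated cells, with a median log2 fold change of 0.57 in both, and 27 of the rises were shared. RRM2, the small subunit of ribonucleotide reductase, read 8.68 and 8.51 in untreated, 10.09 and 10.22 in HAS3 siRNA and 10.41 and 10.18 in scrambled cells. It rose 2.96-fold (adjusted p = 2.33e-05), and the transfected arrays did not separate by sequence. GINS2, part of the replicative helicase, rose 2.52-fold, MCM4, a helicase subunit, 2.18-fold, and DUT, which removes dUTP, 2.14-fold, although 1 of the other DUT probes read -0.26. Of 65 genes of G2/M and mitosis 35 rose and 0 fell with HAS3 siRNA (median 0.48), and 38 rose and 0 fell with the scrambled sequence (median 0.57). At an unadjusted p under 0.05 in limma, 0 genes of either list were lower in either comparison. SPC24, a kinetochore protein, read 6.86 and 6.68, then 8.28 and 8.20, then 8.15 and 8.31 in untreated, HAS3 siRNA and scrambled cells. Its 2.77-fold rise was shared, as were those of FOXM1, a transcription factor of mitotic genes (2.47-fold), CDCA3 (2.24-fold) and the chromosomal passenger protein INCENP (1.93-fold). Scrambled minus untreated did not pass for FOXM1 under median centring or without the first scrambled array, nor for DUT under median centring. Under median centring 14 of the G1/S and 7 of the G2/M genes rose. Without the first HAS3 siRNA array 21 and 20 rose, and G2/M rises numbered 22 without the first untreated array and 23 without the second HAS3 siRNA array.

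The G2/M list was read for the core of the cell cycle gene homology region, TTTGAA on either strand, the letters bound by the MuvB complex. It was present in the 250 bases before a start of 29 of 56 members with a promoter sequence (51.79%), against 1109 of 8959 tested genes (12.38%). Because the list was drawn up from known mitotic genes, a share above that of all genes could be foreseen and does not bear on these arrays. The 4 members with the largest rises that held it are shown as above. They are chr11:62123975-62124010 (plus strand) for INCENP, chr1:197146751-197146808 (minus strand) for ASPM, chr10:92593076-92593129 (plus strand) for KIF11 and chr2:112764664-112764721 (minus strand) for CKAP2L. The last 3 hold the match on the other strand. Their log2 fold changes with HAS3 siRNA were 0.95, 0.89, 0.81 and 0.79, and all 4 rises were shared. Of the other members that held it some rose, as CDCA8 (0.67) and CCNB2 (0.66). Some did not pass, as CDK1 (0.34), PLK1 (0.20) and CDC20 (0.15). Whether members with the letters rose more than those without was not tested.
INCENP: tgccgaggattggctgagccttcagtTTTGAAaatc
ASPM: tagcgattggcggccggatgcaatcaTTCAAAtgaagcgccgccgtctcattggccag
KIF11: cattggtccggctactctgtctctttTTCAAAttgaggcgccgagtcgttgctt
CKAP2L: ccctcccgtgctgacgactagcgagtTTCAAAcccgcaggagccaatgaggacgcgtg

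Genes of cholesterol synthesis and other targets of the SREBP transcription factors, which are induced when membrane sterol is low, were mostly higher. Of 31 measured, 16 rose and 4 fell with HAS3 siRNA (median 0.45), and 9 rose and 1 fell with the scrambled sequence (median 0.29). Of the 20 changes 9 were shared, 5 lacking and 6 undecided. SQLE, squalene epoxidase, read 9.02 and 9.02 in untreated, 10.87 and 10.85 in HAS3 siRNA and 9.89 and 9.73 in scrambled cells. The scrambled arrays lay between the other groups, and the 3.58-fold rise with HAS3 siRNA (adjusted p = 3.53e-06) went further than the shared part (HAS3 siRNA minus scrambled 1.05, adjusted p = 0.000412). HMGCS1, which makes the precursor of mevalonate, read 8.51 and 8.90, then 10.16 and 10.13, then 9.32 and 9.25, and also went further with HAS3 siRNA in its 2.70-fold rise. NSDHL, a sterol dehydrogenase, rose from 7.79 and 7.84 to 9.40 and 9.13, with 7.98 and 7.89 in scrambled cells. Its 2.73-fold rise (adjusted p = 5.57e-05) was lacking there. ACSS2, which makes acetyl-CoA from acetate, rose 2.70-fold in the same pattern, from 8.80 and 8.92 to 10.17 and 10.41, against 8.74 and 8.62. ABCG1, a sterol exporter and no synthesis gene, fell at least 3.13-fold and was undetected on both siRNA arrays. The ABCG1 fall was shared (scrambled minus untreated -1.39, limma adjusted p = 6.28e-05). The rises numbered 9 and 10 without the first and the second HAS3 siRNA array, and 8 under median centring, and the shared changes 3 and 5 without the first and the second scrambled array. The scrambled rise of HMGCS1 did not pass under median centring or without either scrambled array, nor that of SQLE under median centring. The sterol response element TCACNCCAC was found in 1 of 27 promoters of the list (3.704%) and in 1.284% of all. That promoter was of SREBF2, which did not pass with HAS3 siRNA (log2 fold change 0.29, adjusted p = 0.223).

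Among epithelial junction genes 8 of 23 fell and 3 rose, or 1 without the first untreated array. Over all genes 14% were lower and 12.2% higher. The median log2 fold change of the junction list was 0.047 with HAS3 siRNA. It was 0.063 with the scrambled sequence, where 4 rose and 4 fell. CDH1, the epithelial cadherin, read 10.85 and 10.73 in untreated, 8.56 and 8.54 in HAS3 siRNA and 10.31 and 10.39 in scrambled cells. It fell 4.74-fold with HAS3 siRNA (log2 fold change -2.24 ± 0.14, SE, adjusted p = 1.83e-06) and 1.36-fold with the scrambled sequence (adjusted p = 0.0468), and the difference between the sequences passed (adjusted p = 1.36e-05). The scrambled fall of CDH1 did not pass under median centring or without either scrambled array, where the fall with HAS3 siRNA was lacking in scrambled cells. CLDN7, a tight junction claudin, read 7.91 and 7.85, then 5.25 and 5.18, then 5.47 and 5.74 on the same arrays. Its 6.35-fold fall was shared, and HAS3 siRNA minus scrambled did not pass (adjusted p = 0.256). MARVELD3, a tight junction protein, fell 2.75-fold, a fall lacking in scrambled cells, though 1 of its other probes did not pass (adjusted p = 0.0767), and the MARVELD3 class was undecided under median centring and without the second scrambled array.

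Among genes of mesenchymal cells and TGF-beta signalling, 7 of 23 rose and 2 fell, against 12.2% higher and 14% lower over all genes. The median log2 fold change of the list was 0.039 with HAS3 siRNA. It was 0.14 with the scrambled sequence, where 2 rose and 2 fell. SNAI2, a repressor of epithelial genes, read 7.21 and 6.94, then 8.75 and 8.51, then 7.43 and 7.49 in untreated, HAS3 siRNA and scrambled cells. The 2.94-fold rise (adjusted p = 0.000157) was lacking in scrambled cells. VIM, the mesenchymal intermediate filament, rose 1.91-fold with an undecided class, and the matrix protein THBS1 rose 3.66-fold, about as in scrambled cells (3.31-fold). MMP7, an epithelial matrix metalloproteinase, rose from 4.87 and 4.83 to 6.47 and 6.71, with 5.80 and 5.47 in scrambled cells, a shared rise that was lacking without the first scrambled array. Without the first HAS3 siRNA array 4 of these genes rose. CDX2, an intestinal transcription factor, fell 2.78-fold, a fall lacking in scrambled cells, from 8.88 and 8.95 to 7.27 and 7.61, with an undecided class under median centring. Other colon epithelial markers rose, KRT18 1.36-fold and the brush border protein VIL1 1.47-fold, and the keratins KRT8 and KRT19 had log2 fold changes of -0.19 and 0.29 and did not pass (adjusted p = 0.468 and 0.179). The part of a shift in cell state or cell makeup in these values was not tested.

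Of 42 genes of focal adhesions and integrins 15 fell and 3 rose, against 14% lower and 12.2% higher over all genes. Their median log2 fold change was -0.18. With the scrambled sequence 10 fell and 2 rose, and 11 of the changes were shared. ITGA5, the fibronectin receptor subunit, fell 2.66-fold, LAMA5 2.05-fold, and LAMB3 2.17-fold, although the second LAMB3 probe read 0.045. ENAH, an actin regulator, read 7.13 and 7.15 in untreated, 6.14 and 6.32 in HAS3 siRNA and 7.21 and 7.22 in scrambled cells. This 1.88-fold fall was lacking in the scrambled arrays, but undecided under median centring. Without the first scrambled array the fall of ITGA5 was lacking and that of LAMA5 undecided. The rises numbered 1 without the first HAS3 siRNA array, and the falls numbered 6 without either HAS3 siRNA array, 7 and 9 without the first and the second untreated array, and 6 under median centring.

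Other genes led the comparison outside these lists. Among shared changes, SFRP5, a secreted Wnt antagonist, had the largest rise. It read 5.90 and 5.61 in untreated, 8.93 and 9.01 in HAS3 siRNA and 7.30 and 7.72 in scrambled cells, and rose 9.30-fold (log2 fold change 3.22 ± 0.18, SE, adjusted p = 9.42e-07), further than with the scrambled sequence (adjusted p = 0.000369). SLC2A6, a hexose transporter, rose 4.25-fold, the nucleolar GTPase GNL3L 4.13-fold and the chemoattractant RARRES2 3.55-fold. FGFBP1, which carries fibroblast growth factors, rose from 5.28 and 5.58 to 7.16 and 7.36 but stood higher still in scrambled cells, at 8.91 and 8.76. AKT2 rose 2.88-fold, with arrays at 6.83 and 6.12. CDC14B, a phosphatase, rose 3.30-fold by the brightest probe, while its other probes fell by 0.81 and 0.76 on the log2 scale, so its direction is not settled. TMSB15B rose 3.08-fold, with 1 of its other probes at 0.058, and was lacking in scrambled cells under median centring and without the second scrambled array.

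Other shared falls included the following genes. ASS1, argininosuccinate synthase, read 12.42 and 12.33 in untreated, 9.01 and 8.78 in HAS3 siRNA and 8.43 and 8.63 in scrambled cells. It fell 11.2-fold with HAS3 siRNA (adjusted p = 1.77e-07) and 14.4-fold with the scrambled sequence. TUBB2B, a beta tubulin, read 11.34 and 11.18, then 7.19 and 7.65, then 10.32 and 10.48. Most of its 14.3-fold fall was therefore on the HAS3 siRNA arrays (HAS3 siRNA minus scrambled -2.98, adjusted p = 2.08e-06). BEX2 fell 6.85-fold with HAS3 siRNA and 6.79-fold with the scrambled sequence, and GRB10, an adaptor of the insulin receptor, 5.57-fold and 5.82-fold. WIPI1, an autophagy protein, fell 4.87-fold. Of 35 autophagy genes 13 fell and 1 rose, against 14% lower and 12.2% higher over all genes. MAP1LC3B (2.18-fold lower) and WIPI2 (2.28-fold lower) were among the falls. Without the second untreated array 8 autophagy genes fell. GRTP1 fell at least 7.12-fold, S100P, a calcium-binding protein of tumour cells, 6.89-fold, and ULBP1, a ligand of the NKG2D receptor, 6.73-fold. Without the first scrambled array the falls of TUBB2B and ULBP1 were lacking and those of MAP1LC3B and WIPI2 undecided.

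**Figure D4:**
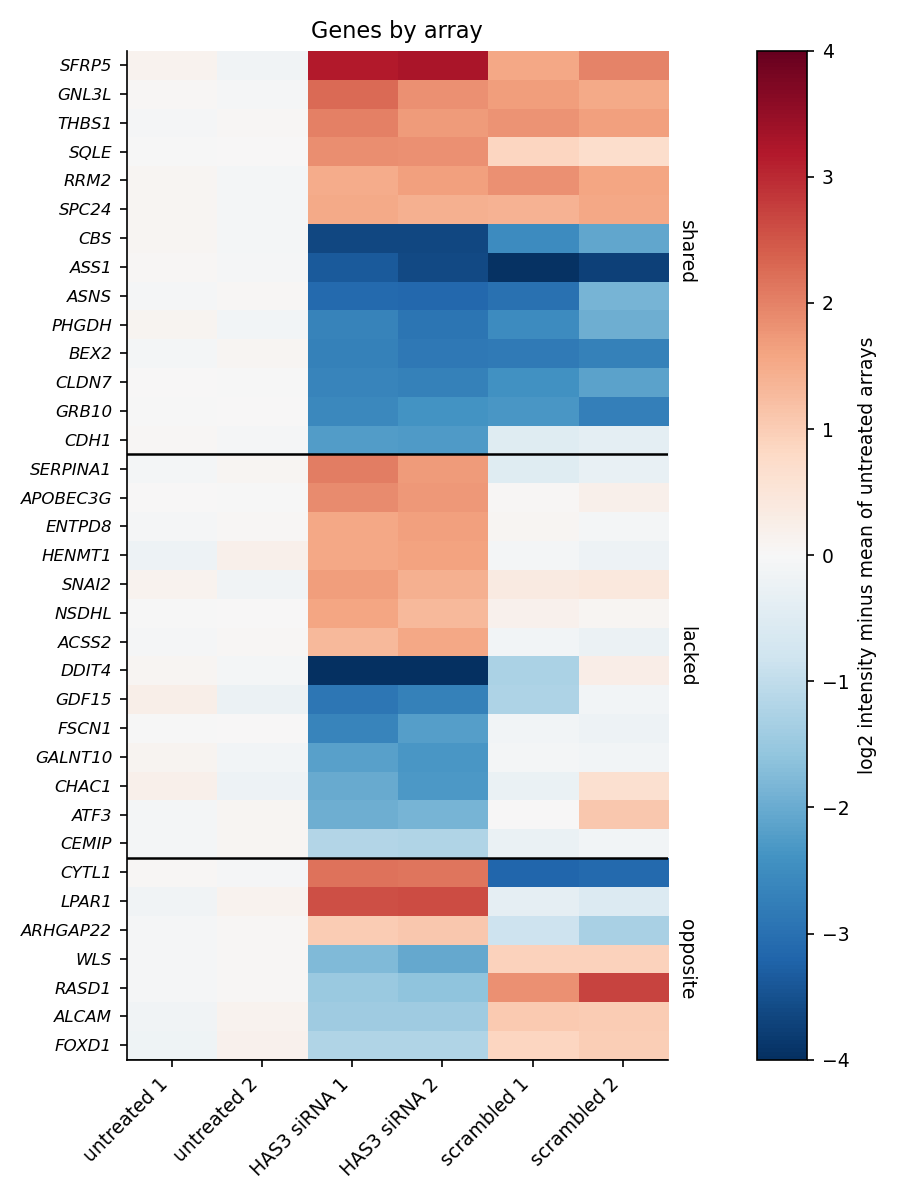
Log2 intensity minus the mean of the untreated arrays (colour, drawn at the end of the scale beyond 4) for genes named in the text, in rows, on the 6 arrays, in columns; lines separate shared, lacking and opposite changes. Shared genes have 1 colour direction on the 4 transfected arrays, lacking genes stand out on the 2 HAS3 siRNA arrays, and opposite genes change colour between the HAS3 siRNA and scrambled arrays.

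Changes lacking in scrambled cells included both secreted and intracellular proteins. SERPINA1, the inhibitor of neutrophil elastase, read 7.10 and 7.24 in untreated, 9.22 and 8.86 in HAS3 siRNA and 6.70 and 6.87 in scrambled cells. It rose 3.66-fold (adjusted p = 1.24e-05), and its other probes read 1.88 and 1.53 higher. APOBEC3G, a cytidine deaminase that restricts retroviruses, rose 3.52-fold, from 5.36 and 5.31 to 7.23 and 7.06, with 5.39 and 5.55 in scrambled cells. ENTPD8, an ectonucleotidase, rose 3.03-fold, and its other probes by 0.62 and 0.83 on the log2 scale. HENMT1, which methylates the ends of small RNAs, rose 2.97-fold, ASB9 2.93-fold, and ANXA1, an anti-inflammatory annexin, 2.73-fold. In each of these 6 genes the scrambled arrays did not pass against untreated cells.

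FSCN1, which bundles actin filaments, read 12.39 and 12.43 in untreated, 9.78 and 10.22 in HAS3 siRNA and 12.29 and 12.22 in scrambled cells. Both siRNA arrays lay below the other 4 in a 5.31-fold fall (log2 fold change -2.41 ± 0.17, SE, adjusted p = 3.16e-06). GALNT10, which starts O-linked glycans, fell at least 4.36-fold, from 7.04 and 6.81 to levels that were not detected, with 6.85 and 6.81 in scrambled cells. The chemokine CXCL8 fell 3.87-fold, from 9.56 and 9.99 to 7.93 and 7.71, with 9.92 and 10.65 in scrambled cells. Of 18 NF-kB targets and chemokines 5 fell and 4 rose, the rises numbering 2 without the first untreated or first HAS3 siRNA array and 1 without the second HAS3 siRNA array. Over all genes 14% were lower and 12.2% higher. CCL20 fell 2.53-fold, which scrambled cells lacked, and CXCL16 fell 2.73-fold, which they shared. Without the first scrambled array CXCL8 and ATF3 passed in the opposite direction in scrambled cells, and the remaining lacking genes named in this and the preceding paragraph stayed lacking without either scrambled array and under median centring.

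The opposite changes were led by CYTL1, a secreted cytokine-like protein. It read 7.64 and 7.55 in untreated, 9.76 and 9.73 in HAS3 siRNA and 4.42 and 4.48 in scrambled cells, where it was not detected. It rose 4.43-fold with HAS3 siRNA (adjusted p = 1.51e-06) and was at least 6.44-fold lower with the scrambled sequence. LPAR1, a receptor for lysophosphatidic acid, rose 6.03-fold, from 4.79 and 5.07 to 7.50 and 7.54. Scrambled cells were undetected, so their fall is only a bound of at least 1.02-fold, although the difference of -0.45 on the log2 scale passed (adjusted p = 0.046). The untreated arrays were themselves close to their lowest detected levels, 4.76 and 4.83. LPAR1 was lacking rather than opposite without either scrambled array and under median centring. ARHGAP22, a Rac GTPase-activating protein, rose 2.06-fold with HAS3 siRNA and was 2.09-fold lower with the scrambled sequence.

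In the other direction, RASD1, a Ras-related GTPase, read 6.64 and 6.75 in untreated, 5.22 and 5.07 in HAS3 siRNA and 8.50 and 9.40 in scrambled cells. It fell 2.92-fold with HAS3 siRNA (adjusted p = 0.000787) and was 4.79-fold higher with the scrambled sequence (adjusted p = 0.000138). WLS, which carries Wnt proteins to the surface, fell 3.76-fold, from 7.17 and 7.23 to 5.43 and 5.15, against 8.12 and 8.13. Its other probes read -0.95 and -0.99 with HAS3 siRNA. ALCAM, an adhesion molecule, fell 2.68-fold and FOXD1 at least 1.86-fold, while scrambled cells were 2.04-fold and 1.90-fold above untreated cells. WLS was lacking instead of opposite under median centring.

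**Figure D5:**
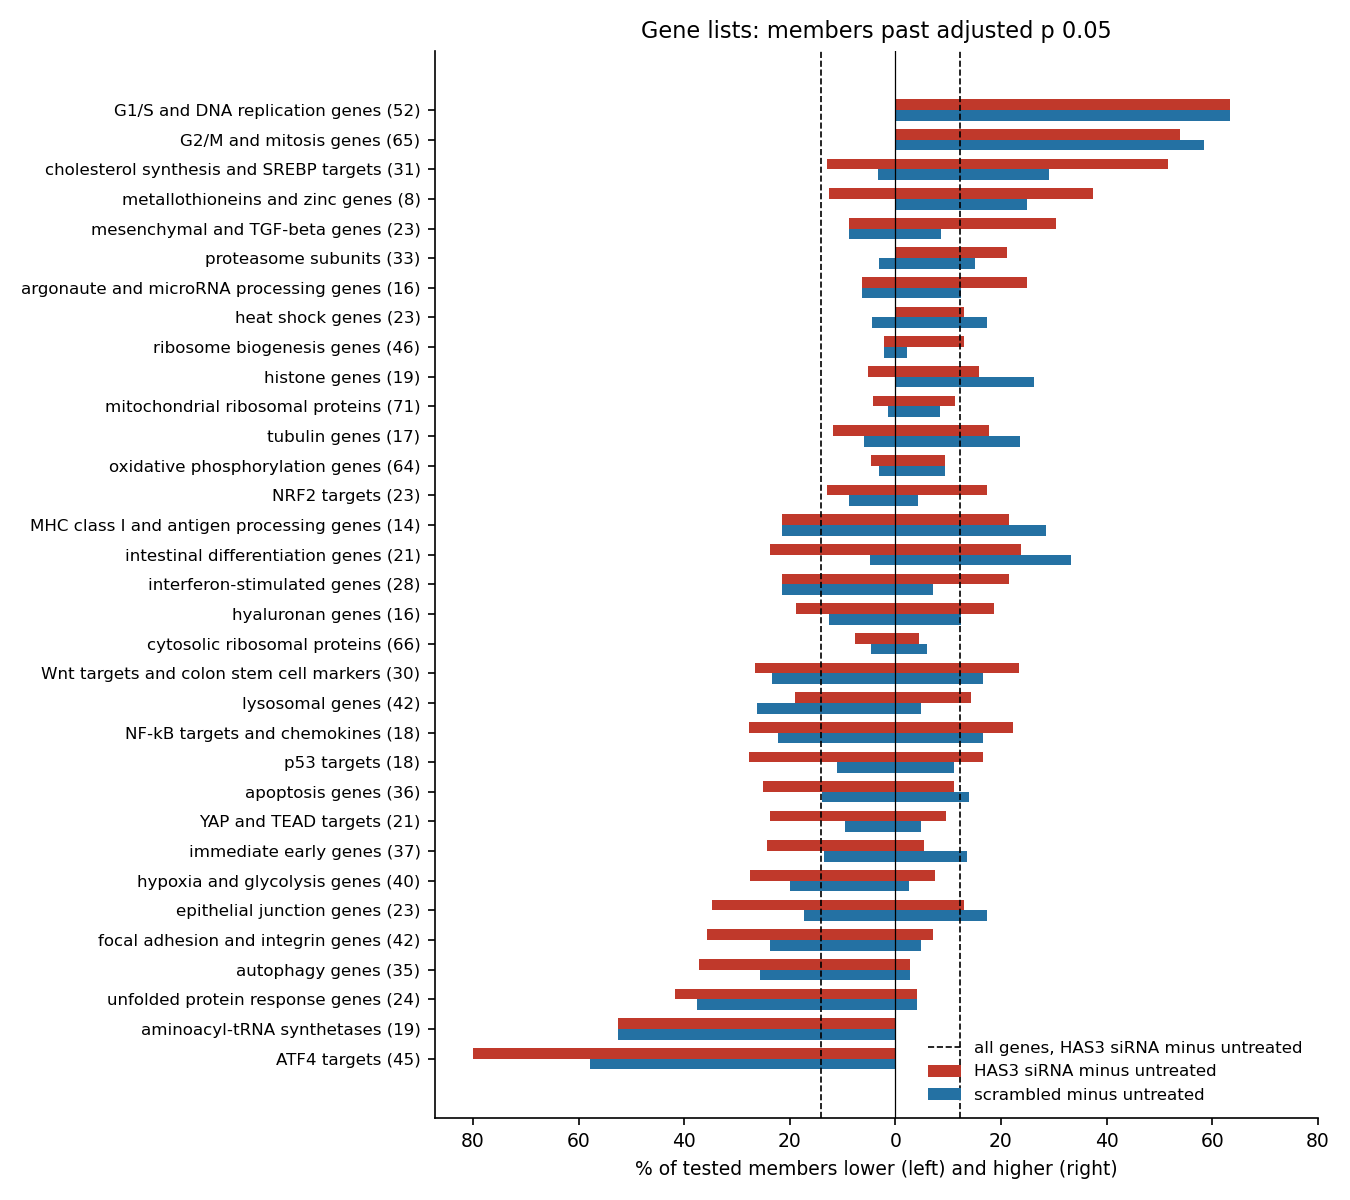
Share of tested members of 33 gene lists (number in brackets) that were lower (left) or higher (right) at an adjusted p under 0.05, in HAS3 siRNA minus untreated and in scrambled minus untreated, which share the untreated arrays; dashed lines mark 14% lower and 12.2% higher over all genes. ATF4 targets reach 80% lower, and the cell cycle and cholesterol lists have the largest shares higher.

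The genes known to respond to interferon and to foreign RNA had 6 rises and 6 falls among 28, against 12.2% higher and 14% lower over all genes. The rises numbered 3 without the second untreated and 2 without the second HAS3 siRNA array, and the falls 3 without either HAS3 siRNA array. OAS2, a sensor of double-stranded RNA, rose 2.23-fold with HAS3 siRNA and 1.48-fold with the scrambled sequence, although a second probe did not pass (adjusted p = 0.0736), and MX2, an antiviral GTPase, rose 2.10-fold against a 1.44-fold lower level in scrambled cells, which did not pass without either scrambled array or under median centring. ISG20, an exonuclease, fell 3.82-fold, which scrambled cells shared (log2 fold change -1.43), and IRF1, an interferon response factor, fell 2.47-fold. The scrambled rise of OAS2 did not pass under median centring or without the first scrambled array, and IRF1, lacking in scrambled cells, was undecided under median centring and without the second. Of 16 Argonaute and microRNA processing genes 4 rose and 1 fell, so that 31.2% were called against 26.2% over all genes. AGO1 rose 1.43-fold, TNRC6B, a partner of Argonaute, 1.60-fold and DICER1 1.34-fold, although the other DICER1 probe read 0.05 (adjusted p = 0.851), and SND1 fell 1.98-fold. The TNRC6B rise and the SND1 fall were shared (scrambled minus untreated 0.73 and -0.74), and AGO1 and DICER1 were undecided. With the scrambled sequence 2 genes of this list rose and 1 fell. The 4 rises numbered 2 and 1 without the first and second untreated array, and 2 and 0 without the first and second HAS3 siRNA array, and 0 under median centring.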

How the data were processed

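The deposited non-normalized table holds bead-summary intensity on a linear scale for 24526 probes. Each intensity has its own detection p-value, per the file headers. The submitters' processing notes list GenomeStudio, without settings. The deposited series matrix holds log2 values, which equal the log2 of these intensities after quantile normalization to within 5e-09 (median 5.86 on each array).

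Background was corrected with nec of limma 3.58.1 (R 4.3.3; from the detection p-values, offset 16), followed by log2 and quantile normalization. Probes detected at p under 0.05 on at least 2 of 8 arrays were kept (14631, of which 13239 named, through the platform annotation and RefSeq GRCh38.p14). The brightest probe stood for each of 10856 genes; 83.8% of 703 other probes of called genes moved in the same direction. Group means were fitted by lmFit and eBayes on the 8 arrays together (11.8 total degrees of freedom), two-sided, with Benjamini-Hochberg adjustment over the 10856 genes. The code was tested on simulated data. A fold is a lower bound ("at least") where neither array of the dimmer group detected the gene, computed against the lowest detected level. The number of arrays limits precision.

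Named were HAS3, HAS2, CD44, HMMR and PTK2; the 15 largest rises and falls; the 8 largest rises and falls that were shared and lacking; 6 opposite changes; and the members of lowest p, 4 at most, in each of 38 gene lists; placeholder symbols were passed over. CEMIP2, UGP2, KRT8, KRT18, KRT19, VIL1, ASPM, KIF11, CKAP2L, CEBPG, AARS1, JDP2, FGF21, SLC1A5, CDCA8, CCNB2, CDK1, PLK1, CDC20, SREBF2, HBG1, HBG2, the cell type markers named as detected or undetected and the other probes were chosen after values were seen. Members and lists were chosen with earlier results of these data known. Alternatives covered background, scaling, filter, probe choice, samples in the fit and arrays left out.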

Additional observations from a re-analysis of the deposited data

How the results depend on the processing

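Every alternative kept the direction of HAS3, which read 0.39 above untreated cells under median centring, 0.40 under cyclic loess and 0.32 to 0.64 with 1 untreated, HAS3 siRNA or scrambled array left out, and 0.48 with no detection filter, without passing. It passed with no background correction or the series matrix values, which are the same fit (0.46, adjusted p = 0.0306), normexp (0.45, 0.0283), detection p under 0.01 on all 8 arrays (0.48, 0.0358), the mean of probes (0.73, 0.00303), fits of 6 arrays (0.48, 0.0355) or 4 arrays (0.48, 0.0342) and eBayes with trend and robust (0.48, 0.0263). Chosen after seeing the data, the fit without the dim second Y15 array (0.48) repeated the fit of 6 arrays. Genes higher numbered 343 under median centring and 624 to 1588 with 1 array of any group left out, genes lower 834 and 801 to 1737, shared changes 542 and 502 to 1720, lacking changes 133 and 153 to 550, and opposite changes 12 and 15 to 61, with 24 under the stricter detection filter. HMMR ranged from -0.069 to 0.35 and PTK2 from -0.22 to 0.051 with 1 array left out, the turned signs coming without the first and the second untreated array, and PTK2 read 0.11 by the mean of probes. The cause of these shifts was not tested. Of 163 named genes that passed, 118 passed in every setting that tested them, and 40 did not pass under median centring. Deviations of same-numbered arrays correlated at 0.218 between untreated and HAS3 siRNA cells, and at -0.072 to 0.274 over the 6 pairs of groups, 3 of them above 0.1; since not every pair was, and the labels state no shared batch, the numbers were not taken as pairs. With the replicate block 3155 genes passed instead of 2843, and HAS3 passed (0.48, adjusted p = 0.0325). A slide block was not run, since the columns name no slide. Where a gene was undetected in a group, its level there is a bound: 54 called rises were undetected on both untreated arrays and 95 called falls on both HAS3 siRNA arrays.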

Other observations

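Of the fetal and embryonic globin genes, HBE1, HBG1 and HBG2 were not spread evenly over the arrays. HBZ was undetected on all 6 untreated, HAS3 siRNA and scrambled arrays. HBE1 read 7.65 and 7.57 in untreated, 8.25 and 8.09 in HAS3 siRNA and a mean of 5.79 in scrambled cells. It was 1.48-fold higher than in untreated cells with HAS3 siRNA (adjusted p = 0.0426, not past the threshold when any 1 untreated or HAS3 siRNA array was left out, under median centring or with no detection filter) and 3.51-fold lower with the scrambled sequence. HBG1 and HBG2 were detected on both untreated and both HAS3 siRNA arrays and on neither scrambled array, and neither passed between HAS3 siRNA and untreated (adjusted p = 0.0605 and 0.107), although probes of these near-identical copies may share signal. The summed log2 level of 14 erythroid markers on the array was 72.1 to 72.5 on untreated, 73.1 to 73.6 on HAS3 siRNA and 67.7 to 68.0 on scrambled arrays, while HBB, ALAS2 and GATA1 were undetected on all 6. Metallothioneins, which bind zinc and copper, also parted: MT1E rose 1.93-fold, lacking in scrambled cells, and MT1G rose 1.59-fold, which they shared. MT1F fell (log2 fold change -0.47), a fall lacking in scrambled cells that did not pass under median centring. Of 8 metallothionein and zinc genes tested, 3 rose and 1 fell, against 12.2% higher and 14% lower over all genes. With the first HAS3 siRNA array left out or under median centring, the MT1G rise did not pass, and without either scrambled array it was undecided. The lysosomal protease CTSL rose 2.02-fold against a 1.83-fold lower level in scrambled cells, which did not pass without the first scrambled array (adjusted p = 0.0517), whereas CTSB, CTSH and PSAP fell 2.30-fold, 1.86-fold and 2.24-fold, which scrambled cells shared. CTSB was undecided without either scrambled array and CTSH without the first, and a second CTSH probe read -0.196 (adjusted p = 0.476).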
